A study of Mus musculus with 4 samples.

Results

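The 8 genes described here, Clec3b, Pi16, Gdf10, Penk, Pdgfra, Dpt, Dcn and Lum, are adventitial fibroblast genes measured in mouse aorta on Affymetrix oligonucleotide arrays. They were taken as all probe sets annotated to these symbols. That gave 10 probe sets for 8 of the 12393 genes with a symbol of their own on the array, and all 8 were among the 5151 genes that reached a log2 level of 5 in at least 1 group. The 4 group levels and the differences between them served to choose the genes, so every value given for the 8 is a description, and none carries a test.

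All mice were females on a C57BL/6 background, 12 to 14 weeks old, whose ovaries had been removed 1 week before the aorta was taken. Wild-type (WT) mice were set beside DPM mice, which carry a transgene, driven by the CMV promoter and so not limited to a cell type of the vessel wall, for residues 176 to 253 of estrogen receptor alpha. That fragment keeps the receptor from striatin and with it from its rapid signalling through kinases. The isolated aortas then received estradiol (E2) at 10 nM, or its ethanol vehicle, during 4 h in culture, which gave the groups WT vehicle, WT E2, DPM vehicle and DPM E2. RNA of 4 aortas was pooled per sample. The titles name 3 replicates for each vehicle group and 2 for each E2 group, but each group comes as 1 combined level, and the labels do not say if a replicate was a new pool of aortas or a repeat array.

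The adventitia is the outer coat of the aorta, a loose collagen sheath that holds fibroblasts, small vessels, nerves and immune cells and grades into the fat around the vessel. Its fibroblasts carry the platelet-derived growth factor receptor Pdgfra and secrete the collagen-binding proteins decorin, lumican and dermatopontin, while Pi16 and Clec3b are known as marks of a stem-like fibroblast population found around vessels in many mouse tissues. In whole aorta these genes are read against a much larger mass of smooth muscle RNA, and fewer fibroblasts cannot be told apart from less RNA of these genes per fibroblast.

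The matrix genes Dcn and Dpt stood above a log2 level of 10 in every group and Lum above 9, so the tissue carried clear fibroblast signal throughout. All levels are log2 values, and the lowest level on the array was 2.288. A gene said to be near the lowest level lay within 0.05 of it in all 4 groups. Levels are compared between groups for 1 probe set and never between probe sets, because probe sets differ in how brightly they bind. A value after ± is a standard error (SE) recovered from the authors' deposited differences and p-values. Where the genotypes are compared under 1 treatment, the SE is an upper bound.

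Clec3b and Pi16 stood highest in DPM vehicle and near their other levels in DPM E2. Gdf10 and Penk differed by about 1.5-fold between WT E2 and WT vehicle, in opposite directions. Of the other 4 genes, Pdgfra spanned 0.64 on the log2 scale over the 4 groups, more than Gdf10 (0.60) and Penk (0.58). Dpt, Dcn and Lum spanned at most 0.42.

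**Figure D1:**
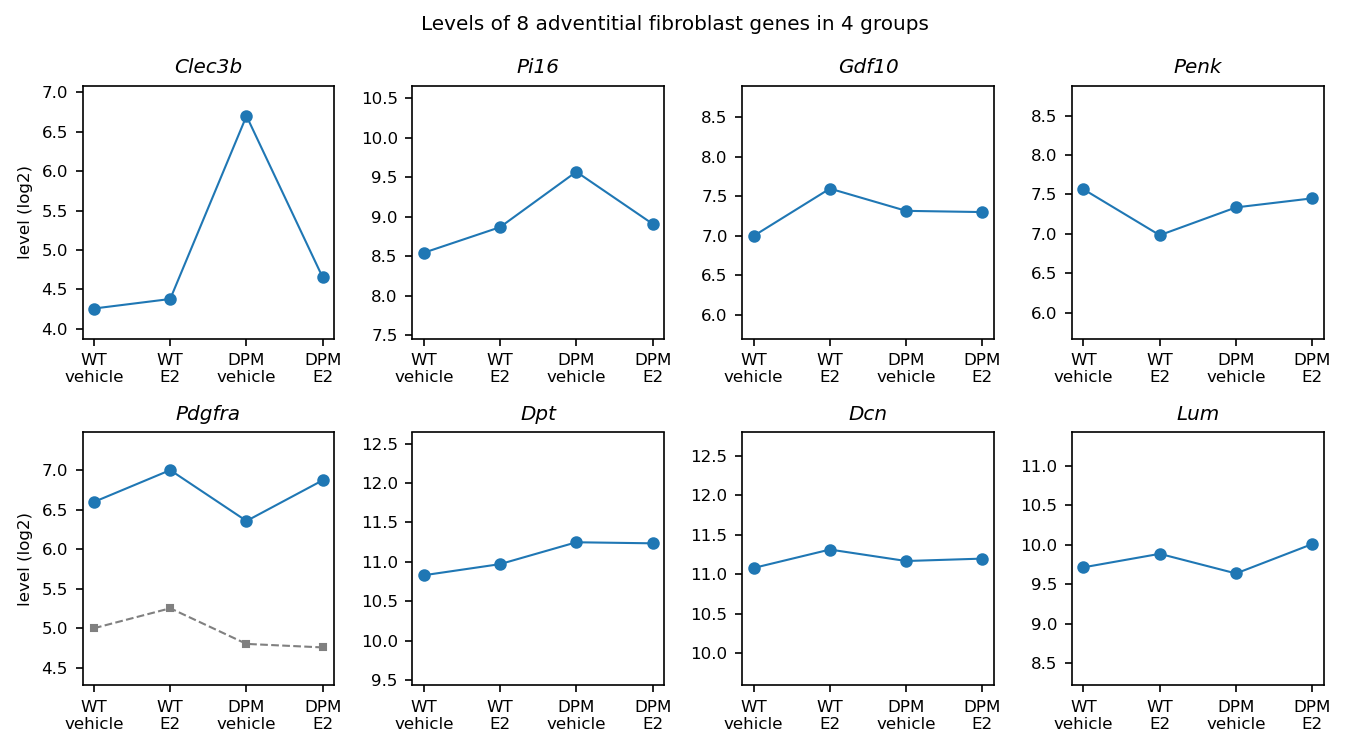
Log2 levels (vertical axis, of the same span in each panel) of the 8 genes in the 4 groups, with 1 combined level per group and so no error bar. Blue points show the probe set with the highest mean level of each gene and grey squares the other Pdgfra probe set, and the DPM vehicle point stands apart for Clec3b and Pi16.

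Of the 8 genes, 4 had a promoter sequence in the RefSeq table used here (build GRCm38.p6), which holds 250 bases before and 50 bases after each annotated start: Gdf10, Pi16, Dpt and Pdgfra. Clec3b, Penk, Dcn and Lum had none there. Shown are the promoters of Pi16 and Dpt, genes highest in DPM vehicle (Dpt by only 0.01), and of Gdf10, highest in WT E2. They are written 5′ to 3′ on the plus strand, in lower case with a TATAAA match in capitals, and lie at chr17:29318632-29318931 for Pi16, chr1:164796413-164796712 for Dpt and chr14:33923337-33923636 for Gdf10.
Pi16: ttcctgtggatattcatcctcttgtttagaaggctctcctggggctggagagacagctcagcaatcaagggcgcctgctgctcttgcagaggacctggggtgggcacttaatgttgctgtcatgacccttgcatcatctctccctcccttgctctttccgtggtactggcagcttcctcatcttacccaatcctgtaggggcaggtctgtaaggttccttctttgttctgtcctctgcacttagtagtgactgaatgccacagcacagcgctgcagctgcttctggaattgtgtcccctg
Dpt: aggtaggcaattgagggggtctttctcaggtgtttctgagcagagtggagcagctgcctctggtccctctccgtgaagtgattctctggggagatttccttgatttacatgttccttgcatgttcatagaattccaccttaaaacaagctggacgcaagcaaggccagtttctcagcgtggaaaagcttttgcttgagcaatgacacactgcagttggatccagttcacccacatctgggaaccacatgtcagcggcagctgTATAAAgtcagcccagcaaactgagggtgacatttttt
Gdf10: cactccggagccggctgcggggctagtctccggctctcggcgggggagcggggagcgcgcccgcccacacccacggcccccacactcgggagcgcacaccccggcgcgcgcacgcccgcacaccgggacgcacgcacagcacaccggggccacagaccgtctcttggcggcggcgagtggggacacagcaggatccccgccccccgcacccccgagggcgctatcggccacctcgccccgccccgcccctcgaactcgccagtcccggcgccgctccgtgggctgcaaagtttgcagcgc
The base composition set them apart, with 77.3% G and C for Gdf10 against 53.3% for Pi16, 51% for Pdgfra and 48.7% for Dpt, beside a median of 52.7% over the 32851 promoters of the table. Both strands of the 4 promoters were searched for the full palindromic estrogen response element (held by 0.07% of all promoters), the shorter AGGTCA (16.3%), which shares GGTCA with it, the AP-1 site TGANTCA (7.81%), the proenkephalin CRE-2 site TGCGTCA (2.12%), the cyclic AMP response element TGACGTCA (1.79%) and TATAAA (13.6%). The only match was the TATAAA of Dpt, 13 bases past the annotated start. A window without a match says only that these letters are not in it.

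Clec3b encodes tetranectin, a secreted C-type lectin that binds plasminogen. It stood at 4.26 in WT vehicle, 4.38 in WT E2, 6.70 in DPM vehicle and 4.65 in DPM E2. DPM vehicle was the only group in which it reached the minimum level of 5, so the gene was kept through that group alone, and in the other 3 groups its signal was low. With vehicle, the DPM level exceeded the WT level by 2.44 (SE at most 1.05), which is 5.43-fold, while with E2 the genotypes differed by 0.27 (SE at most 1.05). The response to E2, the E2 level minus the vehicle level, was -2.05 ± 0.84 in DPM and 0.12 ± 0.63 in WT. The difference between these responses was -2.17 ± 1.05. Its errors were the widest of the 8 genes, and the difference between the genotypes with vehicle was the largest value of any of the 8.

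Pi16 encodes a secreted protein of the CAP family, named for its likeness to a peptidase inhibitor. Its level was 8.54 in WT vehicle, 8.87 in WT E2, 9.57 in DPM vehicle and 8.91 in DPM E2. The order of the groups was that of Clec3b, with DPM vehicle above the next group by 0.66. Beside WT vehicle, DPM vehicle was higher by 1.03 (SE at most 0.58), or 2.04-fold. With E2 the genotypes were 0.04 apart. The E2 response was 0.32 ± 0.35 in WT and -0.66 ± 0.46 in DPM, so the first was smaller than its error and the second somewhat larger. The other Pi16 probe set was near the lowest level in all 4 groups and gives no comparison.

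DPM vehicle was also the group in which markers of heart and airway, tissues that lie next to the aorta, were high. Of 10 cardiac muscle markers measured, 9 (Myh6, Myl7, Nppa, Actc1, Tnni3, Tnnt2, Myl4, Sln and Mybpc3) were at least 1.5-fold higher in DPM vehicle than in each of the other groups. The mean level of the 10 was 6.41 there against 3.498 in WT vehicle, 3.23 in WT E2 and 3.56 in DPM E2. Of 6 airway epithelium markers measured, 4 (Scgb1a1, Scgb3a1, Scgb3a2 and Bpifa1) did the same, Sftpc and Foxj1 did not, and the means of the 6 were 4.69 in DPM vehicle against 2.33, 2.33 and 3.25 in the same order. In both WT groups those 4 were at most at 2.43. With vehicle, DPM exceeded WT by 4.11 for Scgb1a1, 2.86 for Scgb3a1, 3.28 for Scgb3a2 and 3.90 for Bpifa1. Their SEs were at most 4.18, 2.73, 3.15 and 3.91 in that order, about as wide as the differences. For the 9 cardiac markers the bound on this SE ran from 0.58 (Mybpc3) to 2.26 (Myl7). The myelin gene Mbp, 1 of 4 nerve markers measured, also met the condition, below the minimum level, at 3.51 in WT vehicle, 3.24 in WT E2, 4.81 in DPM vehicle and 3.33 in DPM E2. Of the 8 fibroblast genes 2 (Clec3b and Pi16) met it, of 32 other fibroblast genes measured 2 (Dpep1 and Cygb), and of all 12393 genes 64, or 0.516%. Among the 5151 genes kept the count was 35, or 0.679%, but 19 of the 35, with Clec3b, Dpep1, 6 of the cardiac and the 4 airway markers among them, had passed the level filter through DPM vehicle alone, the group in which the condition asks them to be high. The part of cardiac or airway tissue in the levels of Clec3b and Pi16 was not tested, and as each group has 1 level, no array could be left out.

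**Figure D2:**
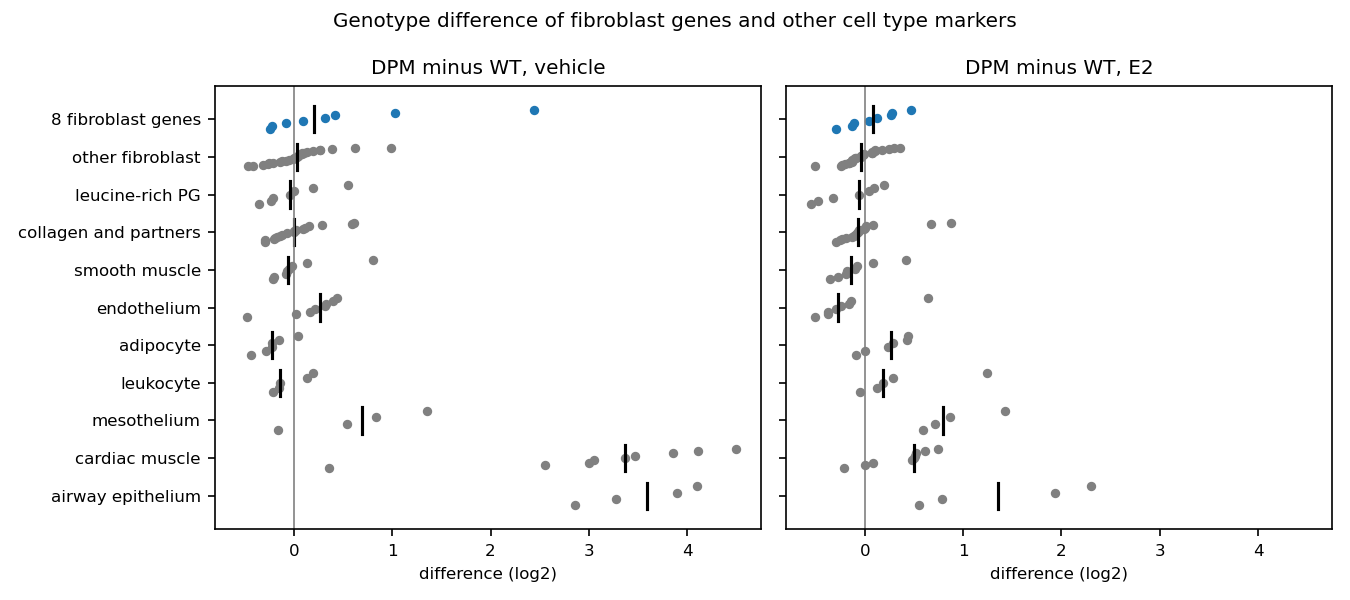
Log2 difference DPM minus WT (horizontal axis) with vehicle (left) and with E2 (right) for the genes kept of each list, among them cardiac and airway markers kept through DPM vehicle alone. Each point is a gene, black bars are list medians, and the vertical line marks no difference. With vehicle, 8 of the 9 cardiac and all 4 airway markers kept lie above Clec3b at 2.44, and the median of the 8 fibroblast genes is 0.20.

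Among the genes kept, the profiles most like that of Clec3b were those of muscle genes. Likeness was the root mean square distance between the 4 group levels after each gene was centred on its own mean, and it was taken for genes that span at least 1 log2 unit. Nearest to Clec3b were Myl4, an atrial myosin light chain (distance 0.15), Ankrd1, a cardiac ankyrin repeat protein (0.18), and Mb, myoglobin (0.19). Ankrd1 and Mb, like Clec3b, had passed the level filter through DPM vehicle alone, the group that sets these profiles apart. Nearest to Pi16 were Cygb, cytoglobin, a globin of fibroblasts (0.061), Snrpd3, a spliceosome protein (0.073), and Cxcl10, an interferon-induced chemokine (0.082). Within a distance of 0.1 lay 0 genes for Clec3b and 4 for Pi16, and with 4 levels per gene this is a description only.

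Gdf10 encodes a secreted ligand of the TGF-beta superfamily related to the bone morphogenetic proteins. It stood at 6.998 in WT vehicle, 7.60 in WT E2, 7.32 in DPM vehicle and 7.30 in DPM E2. WT E2 was the highest group and WT vehicle the lowest, with both DPM groups between them. The response was 0.60 ± 0.25 in WT, a fold of 1.52, and -0.02 ± 0.33 in DPM. The DPM response minus that of WT was -0.62 ± 0.41, and the genotypes differed by 0.32 with vehicle and by -0.30 with E2 (SE at most 0.41 for each), both smaller than that bound.

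Penk encodes proenkephalin, the precursor of the opioid enkephalins, which mouse fibroblasts express as well as neurons. Its level was 7.57 in WT vehicle, 6.98 in WT E2, 7.34 in DPM vehicle and 7.45 in DPM E2. WT E2 was the low group, and the other 3 lay within 0.23 of each other. The WT response of -0.58 ± 0.22 came just short of 1.5-fold, which is 0.585 on this scale, and the Gdf10 response of 0.60 came just past it. In DPM the response of Penk was 0.11 ± 0.29, and the responses differed by 0.70 ± 0.36. With E2 the DPM level exceeded the WT level by 0.47 (SE at most 0.36).

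Beside these WT responses, some markers of other cell types also differed between WT vehicle and WT E2. The mean of the 8 endothelial markers was 6.28 in WT vehicle and 6.62 in WT E2, with 7 of 8 higher beside 51.8% of all genes. That of the 4 mesothelial markers kept was 5.05 and 5.57, but these did not move together. Upk3b was higher with E2 by 1.93 ± 0.96, Krt19 by 0.41 ± 0.48 and Krt8 by 0.19 ± 0.48, while Krt18 differed by -0.44 ± 0.15. The 8 smooth muscle markers had means of 10.47 and 10.40, with 4 higher and 4 lower. The part of cell composition in the responses of Gdf10 and Penk was not tested.

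Pdgfra encodes the alpha receptor for platelet-derived growth factors, a tyrosine kinase that defines fibroblasts in the vessel wall. Its brighter probe set gave 6.60 in WT vehicle, 7.003 in WT E2, 6.36 in DPM vehicle and 6.87 in DPM E2. Both E2 groups lay above both vehicle groups, by 0.40 ± 0.27 in WT and 0.52 ± 0.36 in DPM, each larger than its error. The genotypes differed by -0.24 with vehicle and -0.13 with E2 (SE at most 0.45). The dimmer probe set gave 4.999, 5.25, 4.80 and 4.76 in the same order of groups, and so shared the WT direction (0.25 ± 0.24) but not the DPM direction (-0.04 ± 0.32).

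The secreted matrix genes were the steadiest of the set. Dpt encodes dermatopontin, which binds decorin and collagen fibrils, and stood at 10.83 in WT vehicle, 10.97 in WT E2, 11.25 in DPM vehicle and 11.24 in DPM E2. Both DPM groups were above both WT groups, by 0.42 with vehicle and 0.26 with E2 (SE at most 0.22), and the responses to E2 were small, at 0.14 ± 0.13 in WT and -0.01 ± 0.17 in DPM. Both DPM groups were above both WT groups for Clec3b and Pi16 as well, and there, as for Dpt, the genotypes were closer with E2 than with vehicle. With E2, however, Clec3b differed by 0.27 (SE at most 1.05) and Pi16 by 0.04 (SE at most 0.58), each well below its bound.

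Dcn encodes decorin, a small leucine-rich proteoglycan that binds collagen fibrils and TGF-beta. It stood at 11.08 in WT vehicle, 11.31 in WT E2, 11.17 in DPM vehicle and 11.20 in DPM E2. These levels span 0.23, the narrowest range of the 8. The response was 0.23 ± 0.16 in WT and 0.03 ± 0.22 in DPM (-0.05 when centred on the median of all genes), and the genotypes differed by 0.09 with vehicle and -0.11 with E2 (SE at most 0.27).

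Lum encodes lumican, a keratan sulfate proteoglycan of the same family. Its level was 9.71 in WT vehicle, 9.89 in WT E2, 9.64 in DPM vehicle and 10.01 in DPM E2. As for Pdgfra, both E2 groups lay above both vehicle groups, by 0.17 ± 0.19 in WT and 0.37 ± 0.26 in DPM. The genotypes differed by -0.08 with vehicle and 0.12 with E2 (SE at most 0.32). Dcn and Lum lie next to each other on mouse chromosome 10, in a row with Kera and Epyc, of which Kera was near the lowest level and Epyc between 2.69 and 2.83.

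**Figure D3:**
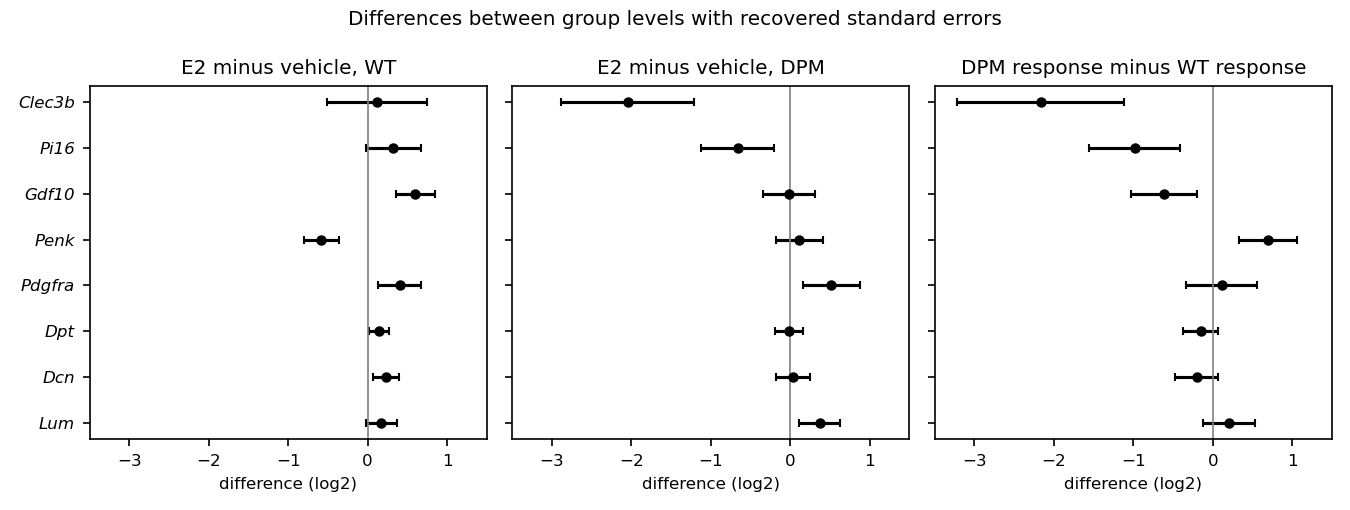
Log2 differences (horizontal axis) of the 8 genes for the response to E2 in WT (left), in DPM (middle), and the second minus the first (right). Points are differences of group levels, bars are 1 recovered SE on each side, and Clec3b has the longest bars and the lowest DPM response, -2.05.

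Counted together, 7 of the 8 genes were higher in WT with E2, all but Penk, with a median of 0.20, while 51.8% of all genes kept were higher, with a median of 0.01. At least 1.5-fold higher was 1 (Gdf10) beside 1.48% of all genes, and 0 were that much lower beside 0.815%. In DPM, 4 were higher and 4 lower with E2, with a median of 0.01 beside 0.08 for all genes, of which 65.9% were higher. At 1.5-fold, 0 were higher (2.25% of all genes) and 2, Clec3b and Pi16, lower (1.69%). Nothing is read from these shares, since the genes were chosen by these values.

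With vehicle, 5 of the 8 were higher in DPM than in WT, with a median of 0.20 beside -0.03 for all genes. Clec3b and Pi16 were the 2 at least 1.5-fold higher (1.82% of all genes), and 0 were lower by that much (1.42%). With E2, 5 were higher and 3 lower, with a median of 0.08 beside 0.04, and 0 reached 1.5-fold in either direction (1.16% of all genes higher, 1.01% lower). The difference between the responses passed 1.5-fold upward for Penk alone (3.81% of all genes) and downward for Clec3b, Pi16 and Gdf10 (3.11%). Its median was -0.18, beside 0.07 for all genes.

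The array's own controls differed between the groups as well. The 18 hybridization controls, added to each sample at fixed amounts, were all lower in DPM E2 than in DPM vehicle, with a median of -0.47, and had a median of 0.02 for the same comparison in WT. Between the genotypes all 18 were higher in DPM with vehicle (median 0.11) and all 18 lower in DPM with E2 (median -0.34). The 3 beta-actin controls were lower with E2 in both genotypes, by -0.24 to -0.44 in WT and -0.37 to -0.58 in DPM. The control at the 5′ end of Gapdh stood at 10.72 in WT vehicle, 11.26 in WT E2, 11.39 in DPM vehicle and 10.18 in DPM E2, while its 3′ control stood between 12.04 and 12.21. That 5′ control was thus highest in DPM vehicle, as were Clec3b and Pi16, but only slightly above WT E2. Its lowest group was DPM E2, while that of Clec3b and Pi16 was WT vehicle. The control in the middle of Gapdh was highest in WT E2, at 12.09 against 11.98 in DPM vehicle, and lowest in DPM E2, at 11.33. The part of RNA quality or hybridization in the levels of the 8 genes was not tested.

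Other fibroblast genes, none of which chose the set, can be read with the authors' deposited p-values. Of 35 listed genes 32 were measured and 27 kept. With E2 in WT, 17 were higher and 10 lower, with a median of 0.08, while 51.8% of all genes were higher. By the unadjusted limma p from the authors' deposited table, 3 passed 0.05 upward, where 4.15% of all genes did, and 1 downward, where 2.64% did. The 3 were Ackr3, a scavenging chemokine receptor, at 0.27 ± 0.05, Gas1, a membrane protein of growth-arrested fibroblasts, at 0.31 ± 0.10, and Twist2, a transcription factor of mesenchyme, at 0.51 ± 0.21. The 1 was Procr, the endothelial protein C receptor, which also marks fibroblast progenitors in mice, at -0.32 ± 0.10. After Benjamini-Hochberg adjustment over the 5151 genes, 0 of the list passed, as did 0% of all genes.

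In DPM, Ackr3 (0.38 ± 0.07) and Gas1 (0.47 ± 0.14) again passed the unadjusted threshold upward, where 4.23% of all genes did, and Dpep1, a membrane dipeptidase, passed downward at -0.61 ± 0.18, where 0.971% did. Dpep1 had passed the level filter through DPM vehicle alone, which favoured a fall from that group, so nothing is read from its call. Procr was at -0.31 ± 0.14 and Twist2 at 0.10 ± 0.28 in DPM, neither past the threshold. None of the list passed after adjustment, with 0.0194% of all genes passing. Another Gas1 probe set gave -0.02 in WT and 0.23 in DPM, and the third lay near the lowest level. For the difference between the responses, 0 of 27 passed at an unadjusted p (3.16% of all genes higher, 1.03% lower) or after adjustment (0.0194%). Its medians were -0.02 for the list (0.03 with a minimum level of 6) and 0.07 for all genes.

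Dpep1 and Cygb, like Clec3b and Pi16, stood highest in DPM vehicle. Cygb stood at 4.89 in WT vehicle, 5.23 in WT E2, 5.87 in DPM vehicle and 5.12 in DPM E2, and Dpep1 at 4.71, 4.62, 5.33 and 4.72. Both were low in every group, and the dimmer Dpep1 probe set, at 4.09 to 4.29, differed by 0.07 between the genotypes with vehicle. Cd34, the sialomucin shared by fibroblast progenitors and endothelium, differed by 0.10 with vehicle, and its responses were 0.28 ± 0.17 in WT and 0.25 ± 0.22 in DPM. The list's median difference between DPM and WT was 0.03 with vehicle and -0.04 with E2.

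**Figure D4:**
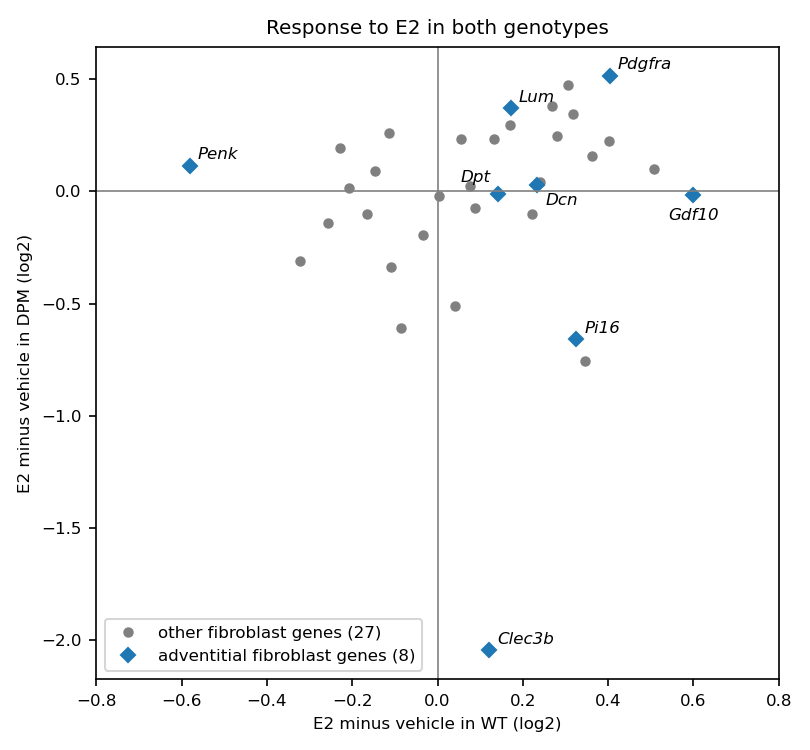
Response to E2 in DPM (vertical axis, log2) against that in WT (horizontal axis, log2) for the 8 genes (blue) and 27 other fibroblast genes (grey), each point a gene. Clec3b lies lowest, Cygb lies beside Pi16, and Penk and Gdf10 lie at the 2 ends of the horizontal range with DPM responses near 0.

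Among the matrix and growth factor partners of the 8 genes that were kept, Tgfb1, Optc and Efemp1 had the largest differences. Among 7 small leucine-rich proteoglycans kept, 0 passed at an unadjusted p in any of the 3 tested comparisons. In each direction of these comparisons 0.971% to 4.23% of all genes passed, which also stands beside the counts of the lists below. Bgn, biglycan, stood between 13.36 and 13.47, and Ogn, osteoglycin, responded by 0.24 ± 0.26 in WT and 0.12 ± 0.35 in DPM. Optc, opticin, was the 1 proteoglycan with a difference of 1.5-fold, with responses of 0.60 ± 0.30 in WT and -0.43 ± 0.39 in DPM, which differed by -1.02 ± 0.49. Of 17 collagens and partners kept, 12 were lower with E2 in WT and 13 in DPM, while 51.8% and 65.9% of all genes were higher. Col1a1, the main fibrillar collagen chain, responded by -0.11 ± 0.18 in WT and -0.12 ± 0.24 in DPM. Pcolce2, which aids collagen processing, passed the unadjusted threshold in WT (-0.28 ± 0.11) and Efemp1, an elastic fibre fibulin, in DPM (0.96 ± 0.39). In the other genotype Pcolce2 was at -0.01 ± 0.15 and Efemp1 at 0.37 ± 0.29. Fbln2, another fibulin, was higher in DPM than in WT by 0.61 with vehicle and 0.67 with E2 (SE at most 0.39), and Fbln1 by 0.59 with vehicle (SE at most 0.75). The responses of Fbln1 differed by -0.88 ± 0.75.

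On the ligand and receptor side of Pdgfra, 0 of 4 genes kept passed at an unadjusted p, and Pdgfrb, the receptor of mural cells, responded by 0.14 ± 0.12 in WT and 0.18 ± 0.16 in DPM. Of 12 genes of BMP and TGF-beta signalling, the family of Gdf10, 11 were higher with E2 in WT, beside 51.8% of all genes. There Tgfb2 passed the unadjusted threshold, at 0.59 ± 0.20, and in DPM Bmp2 did, at 0.59 ± 0.19. The response of Tgfb2 in DPM was 0.49 ± 0.26, and that of Bmp2 in WT was 0.16 ± 0.14. The other Tgfb2 probe sets were also higher with E2 in both genotypes. Tgfb1 and Tgfb3 differed between the responses by -1.06 ± 1.07 and -0.60 ± 0.31. None of these lists had a gene with an adjusted p under 0.05.

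Partners of the remaining members were few at this signal. Of 7 opioid genes measured, only Cpe, a peptide-processing enzyme, was kept, with responses of 0.06 ± 0.15 in WT and 0.22 ± 0.20 in DPM, while the precursor Pdyn, the convertase Pcsk1 and the receptors Oprm1 and Oprk1 lay near the lowest level. Of the plasminogen system to which tetranectin binds, Plat and the receptor Plaur were kept, and Plg itself was near the lowest level. Plaur responded by -0.83 ± 0.55 in DPM and -0.11 ± 0.41 in WT. Of the CAP family of Pi16, only Pi15 and Glipr1 were kept, and their largest difference in any comparison was 0.31. In these 3 lists 0 genes passed at an unadjusted p.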

How the data were processed

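Per the labels, biotin-labelled cRNA from pooled aortas was hybridized to the arrays. The authors deposited 1 log2 level per group for 22690 probe sets, with 3 log2 differences and their p-values. GCRMA and limma are named in the submitters' processing notes, without version or role. The deposited p-values are unadjusted, and the number of arrays limits precision.

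Symbols came from the platform annotation, updated by Entrez identifier. Of the probe sets, 20393 had 1 symbol, 691 several and 1606 none; the last 2 kinds were left out. Where a gene had several probe sets, the brightest on average stood for it. The 5151 genes with a level of at least 5 in 1 group were kept.

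Standard errors were recovered from the deposited differences and p at 6.44 degrees of freedom, the value that held the 3 contrasts' error ratios constant across 10632 probe sets (DPM response 1.331 and difference of responses 1.665 times the WT response). The titles name equal replicate numbers for the genotypes, which would give a ratio of 1, so the titles and the deposited p-values do not match here and how the arrays entered the authors' fit is not known; the SEs are those implied by the deposited p-values. If groups are independent, the error of the difference of responses bounds that of DPM against WT within a treatment. The recovery was checked on simulated data. Benjamini-Hochberg adjustment ran over all 5151 genes (threshold 0.05), and differences of 1.5-fold were counted beside it.

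The members and lists were chosen with earlier results of these data known. Named were all members, the 3 nearest profiles of members spanning at least 1 log2 unit, up to 4 genes of each other list past 1.5-fold, those with an unadjusted p under 0.05 where fewer were so named, and Bgn, Ogn, Kera, Epyc, Pdgfrb, Cd34 and Col1a1. Python 3.11.15, pandas 2.3.3, NumPy 2.4.6 and SciPy 1.17.1 were used. Alternatives were centring, quantile normalization, the mean of a gene's probe sets, the other deposited table, other filters, 2-fold, unadjusted p and other degrees of freedom. P-values measure the spread between samples, which may be technical.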

Additional observations from a re-analysis of the deposited data

How the results depend on the processing

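The count of the 8 genes at 1.5-fold or more in the WT response was 1, and became 2 (Gdf10 and Penk) when differences were centred on the median of all genes, 2 under quantile normalization, and 0 at a threshold of 2-fold. In the DPM response it was 2, and became 1 with the mean of all probe sets of a gene, which takes in the Pi16 probe set near the lowest level, and 1 at 2-fold. DPM against WT with vehicle gave 2, and 1 with the mean of all probe sets. The difference between the responses gave 4, and 1 at 2-fold. Among other fibroblast genes 0 passed after adjustment, against 4 in WT and 3 in DPM at an unadjusted p. Within the 1.5 times allowed for counts, or the error of a value, stayed 137 other values of the comparisons and 160 of single genes. The error set beside a list median was the median SE of the list's single genes, which is not an error of that median. Of these values, 11 changed sign, each smaller than the error set beside it: 8 list medians and 3 of single genes. The 3 were the DPM response of Dcn (0.03, but -0.05 when centred and -0.01 under quantile normalization) and the difference between the Pdgfra responses (0.11, but -0.09 with the mean of its probe sets). The median DPM response of other fibroblast genes, 0.04, was -0.04 when centred. No paired analysis was possible because each group is given as 1 combined level, which also left no replicate to leave out. Calls for the mean of all probe sets were not run, as no p can be formed for such a mean. Clec3b had a low signal outside DPM vehicle, which limits its differences.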

Other observations

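Markers of other cell types differed between the groups in ways not described above. Cardiac Nppa was at 2.30 to 2.38 in 3 groups and at 6.81 in DPM vehicle, and Myh6 at 7.19 there against 2.50 to 3.33. Upk3b, a mesothelial uroplakin, stood at 4.28 in WT vehicle, 6.22 in WT E2, 5.64 in DPM vehicle and 6.81 in DPM E2, and Krt19, Krt8 and Krt18 were highest in DPM E2 at 5.09, 6.14 and 7.83. These 4 mesothelial markers were at least 1.5-fold higher in DPM E2 than in WT E2. Krt19 reached the minimum level of 5 in DPM E2 alone, so it was kept through the group in which it was high. Below the minimum level, Msln was also higher in DPM E2 than in WT E2, by 1.18, while Wt1 differed by -0.02. Among endothelial genes, Icam2 responded to E2 by 0.68 ± 0.13 in WT and by -0.02 ± 0.17 in DPM. Eng and Pecam1 responded by 0.30 ± 0.28 and 0.39 ± 0.27 in WT and by -0.61 ± 0.37 and -0.43 ± 0.36 in DPM, and Emcn was highest in DPM E2 at 5.58. The dimmer Eng probe set gave 0.11 in WT and 0.26 in DPM. In smooth muscle, Des was highest in DPM vehicle at 5.50, the only group in which it reached the minimum level. Myocd, a coactivator of contractile genes, responded by -0.53 ± 0.19 in WT, and Smtn by -0.38 ± 0.15 in DPM. The dimmer Myocd probe set gave -0.02 in WT. Of the adipocyte genes, Pck1 was higher by 1.05 ± 0.97 with E2 in DPM and Ucp1 by 0.69 ± 0.67. The leukocyte gene Cd53 stood at 6.44 in DPM E2 against 5.20 to 5.62 elsewhere, Csf1r responded by 0.42 ± 0.16 in DPM, and the erythroid gene Alas2 was at 8.01 in WT vehicle against 7.31 to 7.57. Dimmer Csf1r probe sets gave 0.46 and 0.07 in DPM. The nerve and chondrocyte lists, with 1 and 2 genes kept, held no difference of 1.5-fold among those kept. Below the minimum level, the nerve gene Mbp was higher in DPM than in WT with vehicle by 1.298, its 8 probe sets differing by -0.06 to 1.37, and the cartilage gene Chad was higher by 0.70. By the authors' deposited limma p, an unadjusted 0.05 was passed in the WT response by 3 endothelial genes upward (4.15% of all genes) and by Krt18 and Myocd downward (2.64%). In the DPM response Emcn, Csf1r and Cd53 passed upward (4.23%) and Smtn and 4 cardiac markers downward (0.971%). The difference between the responses passed upward for Cd53 and Krt18 (3.16%) and downward for Nppa and Icam2 (1.03%). The 4 cardiac markers (Myl7, Nppa, Tnni3 and Sln) had passed the level filter through DPM vehicle alone, and Emcn through DPM E2 alone. That filter favoured the direction of their calls, also that of Nppa between the responses, so nothing is read from these calls. After adjustment over all genes kept, 0 genes of these lists passed 0.05.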
